A study of Mus musculus with 28 samples.

Results

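The genes described here are 40 interferon-stimulated genes that lie outside the OAS, IFIT, GBP/IRG, Schlafen and PYHIN families. They were chosen by name from the 24421 genes counted in RNA sequencing of mouse spleen dendritic cells. Of the 40 genes, 39 had a row in the count tables and all 39 passed the filter on low counts. Rnf213 is not analysed here. By role they comprise 6 genes of ISG15 conjugation, 6 of ADP-ribosylation, 11 antiviral GTPases and nucleotide or RNA effectors, 4 measured TRIM ligases and TRAF-type regulators, 2 nuclear body genes, and 10 small interferon-inducible and other proteins.

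Interferons bind cell-surface receptors that activate JAK kinases and STAT proteins, and the STAT complex with IRF9 binds interferon-stimulated response elements (ISREs) to switch on a broad set of genes. Many of these genes keep a low tonic level in resting cells. Plasmacytoid dendritic cells (pDCs) are known for producing large amounts of type I interferon after viral sensing, and conventional dendritic cells (cDC1s and cDC2s) for presenting antigen. IRF8 is a transcription factor of the interferon regulatory factor family that can bind the same kind of element, alone or with partners such as PU.1.

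All cells were sorted from spleens of untreated C57Bl/6 mice at 6 to 12 weeks of age, and all mice carried loxP-flanked Irf8 alleles (Irf8fl/fl). The 4 pDC_TG libraries came from pDCs of Irf8fl/fl Itgax-cre mice, in which regulatory sequence of the CD11c gene Itgax drives Cre, so other CD11c-expressing cells of the same mice can also lose Irf8. The 8 cDC1_WT libraries held CD24+ cDC1s, the 8 cDC2_WT libraries CD172a+ cDC2s and the 8 pDC_WT libraries pDCs, all from Irf8fl/fl mice without Cre. The labels number the libraries of each group but do not say whether a number is 1 mouse or a pool, so p-values measure the spread between these libraries. The question put to these genes is which of them followed the loss of Irf8 in pDCs and how their levels stand beside those of the conventional subsets.

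Gene counts were 22805201 to 28725550 per pDC_TG library, 23592099 to 30152305 per cDC1_WT library, 20696141 to 29351715 per cDC2_WT library and 17299285 to 30787679 per pDC_WT library. Levels are given as CPM, the counts of a gene relative to its library's TMM-scaled total. Irf8 averaged 1461 ± 257 CPM in pDC_TG (SD, n = 4) and 6145 ± 459 CPM in pDC_WT (n = 8), a log2 fold change of -2.07 (edgeR adjusted p = 4.43e-13, exact two-sided permutation p = 0.00404). Counts from exons outside the deleted part would remain, so the residual level is not a share of undeleted cells. The summed level of 7 pDC markers was 8027 to 11160 CPM in pDC_TG, 83.1 to 110 CPM in cDC1_WT, 84.1 to 99.6 CPM in cDC2_WT and 8628 to 11464 CPM in pDC_WT. Within this list 1 gene was higher and 2 were lower in pDC_TG than in pDC_WT (edgeR), with a median log2 fold change of -0.62. In 4 of the 7 every pDC_TG library was below every pDC_WT library, and in 1 every one was above. Over all genes tested, 7.72% were called higher and 7.04% lower. Every pDC_TG library was above every pDC_WT library in 4.9% of them and below in 4.81%. Klk1 had 183 to 252 CPM in pDC_TG and 686 to 1305 CPM in pDC_WT. Cox6a2 went the other way, with 635 to 1359 CPM in pDC_TG and 271 to 517 CPM in pDC_WT.

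Some markers of other cells differed between the pDC groups, and their part in the results below was not tested except where a value is given. The counts of called markers stand beside the same 7.72% higher and 7.04% lower over all genes tested. The T cell list (6 genes, 5 with a row) summed to 54.0 to 104 CPM in pDC_TG and 3.65 to 8.44 CPM in pDC_WT. Lck and Cd2 made up that difference, while Cd3e stood at 0 to 1.08 CPM in pDC_TG and 0 to 1.32 CPM in pDC_WT. The plasma cell list (5 genes) summed to 1615 to 1775 CPM in pDC_TG and 953 to 1452 CPM in pDC_WT, but its members moved apart, 2 higher and 2 lower (edgeR). Sdc1 had 873 to 1221 CPM in pDC_TG and 36.8 to 66.5 CPM in pDC_WT, whereas Xbp1 had 417 to 506 CPM in pDC_TG and 739 to 1068 CPM in pDC_WT. Prdm1 was also higher and Mzb1 lower in pDC_TG. The cDC1 list (7 genes) summed to 500.2 to 884 CPM in pDC_TG and 372 to 441 CPM in pDC_WT, with 2 genes higher and 3 lower and a median log2 fold change of -0.74. Cd8a, at 459 to 852 CPM in pDC_TG and 226 to 322 CPM in pDC_WT, carried the higher sum. Clec9a had 3.61 to 10.2 CPM in pDC_TG and 60.8 to 124 CPM in pDC_WT, and Batf3 was at 0 in every pDC_TG library. The cDC2 list (7 genes) summed to 1146 to 1364 CPM in pDC_TG and 1130 to 1602 CPM in pDC_WT, with 2 genes higher and 1 lower and a median log2 fold change of -0.73. Itgam had 19.1 to 36.5 CPM in pDC_TG and 0 to 1.75 CPM in pDC_WT, and Irf4 330 to 520 and 95.9 to 253 CPM. Cd4, at 435 to 495 CPM in pDC_TG and 563 to 1027 CPM in pDC_WT, and Sirpa, at 270 to 328 and 346 to 539 CPM, went the other way. The neutrophil list (9 genes) summed to 0.230 to 196 CPM in pDC_TG, with the 196 CPM in replicate 4, and to 0.195 to 2.62 CPM in pDC_WT. Without replicate 4 of pDC_TG the counts of members called were the same, 18 higher and 3 lower.

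In pDC_TG, 18 of the 39 genes rose and 3 fell against pDC_WT, and 18 did not pass the test (edgeR's quasi-likelihood test, Benjamini-Hochberg adjusted p under 0.05 over 13159 genes). Of all genes tested, 7.72% were called higher and 7.04% lower, beside 46.2% and 7.69% of the members. In 15 members every pDC_TG library was above every pDC_WT library, and in 1 member every one was below; over all genes these shares were 4.9% and 4.81%. The median log2 fold change of the members was 0.35, beside 0.00 over all genes, and 32 of 39 were above 0. In bulk RNA a change in the level per cell and a change in the share of cells that express the gene cannot be told apart.

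**Figure D1:**
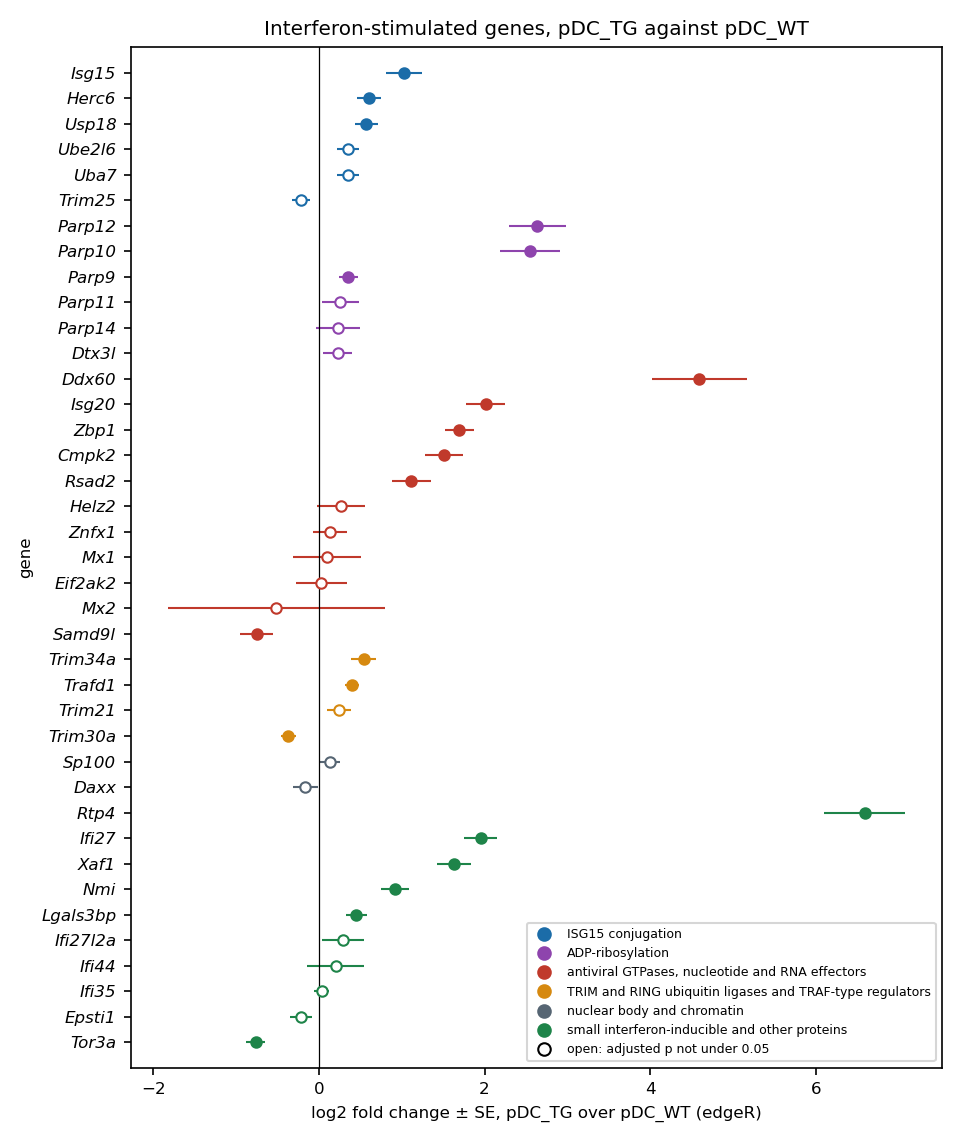
log2 fold change of each of the 39 genes in pDC_TG over pDC_WT (x axis, with its SE as a bar), grouped by role (colours), filled where the adjusted p was under 0.05 and open otherwise. Rtp4 (6.59) and Ddx60 (4.59) lie far right of the rest, and Tor3a, Samd9l and Trim30a are the filled points left of 0.

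The largest change was in Rtp4, an interferon-induced member of the receptor transporter protein family. It had 121, 132, 182 and 165 CPM in the 4 pDC_TG libraries, against 0.392 (lowest), 1.26 (median) and 3.14 CPM (highest) in the 8 pDC_WT libraries. The groups were far apart, and every pDC_TG library was also above every cDC2_WT library (76.4 to 118 CPM). The log2 fold change was 6.59 ± 0.49 (SE, edgeR adjusted p = 4.00e-11), a 96.4-fold difference. Of the exonic bases of Rtp4, 13.9% are shared with the annotated gene Gm45338, and the libraries were made with a kit that does not mark strand, so reads from the shared part cannot be assigned to either.

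Ddx60, a DExD/H-box helicase linked to cytosolic RNA sensing, had the next largest rise. Its level was 42.1, 34.3, 56.3 and 33.1 CPM in pDC_TG, against 0.404, 1.84 and 3.87 CPM as lowest, median and highest of pDC_WT. The groups did not overlap, and the pDC_TG libraries lay around those of cDC2_WT (28.6 to 42.8 CPM). The log2 fold change was 4.59 ± 0.57 (edgeR adjusted p = 8.64e-07).

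Among the antiviral effectors, 5 of 11 rose and 1 fell, beside 7.72% and 7.04% of all genes tested. Isg20, an exoribonuclease that degrades viral RNA, had 21.5, 24.0, 27.2 and 34.7 CPM in pDC_TG, against a lowest, median and highest of 4.35, 6.33 and 10.7 CPM in pDC_WT. Its log2 fold change was 2.01 ± 0.24 (edgeR adjusted p = 2.54e-07), with no overlap between the groups. Zbp1, a sensor of Z-form nucleic acids that can start necroptosis, had 38.9, 40.02, 52.0 and 37.3 CPM in pDC_TG, against 9.42, 13.6 and 16.9 CPM in pDC_WT. The pDC_TG libraries of Zbp1 were all above those of pDC_WT, by 1.70 ± 0.18 on the log2 scale (edgeR adjusted p = 3.01e-08).

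Cmpk2 and Rsad2 are neighbours on chromosome 12, on opposite strands with 12751 bases between them. Cmpk2 encodes a mitochondrial nucleotide kinase, and Rsad2 encodes viperin, which makes a chain-terminating nucleotide from CTP. Cmpk2 averaged 87.5 ± 14.7 CPM in pDC_TG and 30.7 ± 6.30 CPM in pDC_WT (SD, n = 4 and 8; log2 fold change 1.51 ± 0.23, edgeR adjusted p = 1.85e-05). Rsad2 averaged 33.7 ± 4.57 CPM in pDC_TG and 15.6 ± 3.67 CPM in pDC_WT (log2 fold change 1.12 ± 0.24, edgeR adjusted p = 0.00109). Both genes rose without overlap between the groups.

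The other antiviral effectors did not follow. Mx1, a GTPase whose gene is known to be defective in most inbred mouse strains, C57BL/6 among them, had 6.75, 7.04, 2.33 and 5.39 CPM in pDC_TG, against 3.06, 4.75 and 10.0 CPM as lowest, median and highest of pDC_WT. The groups overlapped, and the log2 fold change of Mx1 was 0.10 ± 0.42 (edgeR adjusted p = 0.944). Its neighbour Mx2, annotated as a polymorphic pseudogene, averaged 1.39 ± 1.54 CPM in pDC_TG and 1.99 ± 1.32 CPM in pDC_WT. Eif2ak2, the RNA-activated kinase PKR, averaged 6.97 ± 1.54 CPM in pDC_TG and 6.83 ± 1.64 CPM in pDC_WT (log2 fold change 0.03 ± 0.30, edgeR adjusted p = 0.986). All 3 genes were measured at low levels in both pDC groups. Helz2, a helicase, and Znfx1, a helicase-like sensor of double-stranded RNA, had log2 fold changes of 0.27 ± 0.29 and 0.14 ± 0.20 and were not called.

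In the ADP-ribosylation group, 3 of 6 genes rose and none fell, beside 7.72% and 7.04% of all genes tested. Parp12, a mono-ADP-ribosyltransferase, had 30.1, 14.4, 33.8 and 36.2 CPM in pDC_TG, against 0.713, 5.28 and 8.29 CPM as lowest, median and highest of pDC_WT. The log2 fold change was 2.64 ± 0.34 (edgeR adjusted p = 1.32e-06), without overlap. Parp10, also a mono-ADP-ribosyltransferase, had 51.6, 27.6, 28.3 and 31.3 CPM in pDC_TG, against 0.645, 5.74 and 12.4 CPM in pDC_WT, and its log2 fold change was 2.55 ± 0.36 (edgeR adjusted p = 5.73e-06). The groups of Parp10 did not overlap either, with replicate 1 of pDC_TG above the other three.

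The remaining ADP-ribosylation genes moved little. Parp9 and the ubiquitin ligase gene Dtx3l, whose products form a complex, overlap head to head on chromosome 16. Parp9 rose by 0.35 ± 0.11 on the log2 scale (edgeR adjusted p = 0.0335), a call that was lost without replicate 1 (adjusted p = 0.177), replicate 2 (0.0694) or replicate 3 (0.0519) of pDC_TG. Dtx3l and Parp14, which lies in the same stretch, each had a log2 fold change of 0.23 and were not called, and Parp11 had 0.26. The share of exonic bases that Parp9 and Dtx3l hold in common is 9.40% of Parp9 and 8.00% of Dtx3l.

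ISG15 is a ubiquitin-like protein that is activated by UBA7 (E1), passed to UBE2L6 (E2), attached by HERC6 in mice and removed by USP18, which also restrains signalling at the type I interferon receptor. Of the 6 genes of this group, 3 rose and none fell, beside 7.72% and 7.04% of all genes tested. Isg15 had 44.4, 38.8, 64.3 and 47.2 CPM in pDC_TG, against 16.1, 21.1 and 37.8 CPM as lowest, median and highest of pDC_WT. The groups came close without overlapping, and the log2 fold change was 1.03 ± 0.22 (edgeR adjusted p = 0.00135). Usp18 had 207, 194, 272 and 252 CPM in pDC_TG, against 116, 154 and 185 CPM in pDC_WT, with a log2 fold change of 0.57 ± 0.13 (edgeR adjusted p = 0.00266). The Usp18 groups were adjacent and did not overlap, and the call was lost with the replicate number as a block and the 2 groups alone in the fit (adjusted p = 0.0620).

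Herc6, which shares 13.7% of its exonic bases with Gm45193, averaged 63.8 ± 7.65 CPM in pDC_TG and 41.9 ± 5.61 CPM in pDC_WT (log2 fold change 0.61 ± 0.15, edgeR adjusted p = 0.00373). Uba7 and Ube2l6 each had a log2 fold change of 0.35 ± 0.13, with edgeR adjusted p = 0.0668 and 0.0647, and did not pass. Trim25, a ubiquitin ligase of RIG-I, averaged 175 ± 13.6 CPM in pDC_TG and 203 ± 24.7 CPM in pDC_WT and was not called (log2 fold change -0.21 ± 0.11, edgeR adjusted p = 0.204).

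**Figure D2:**
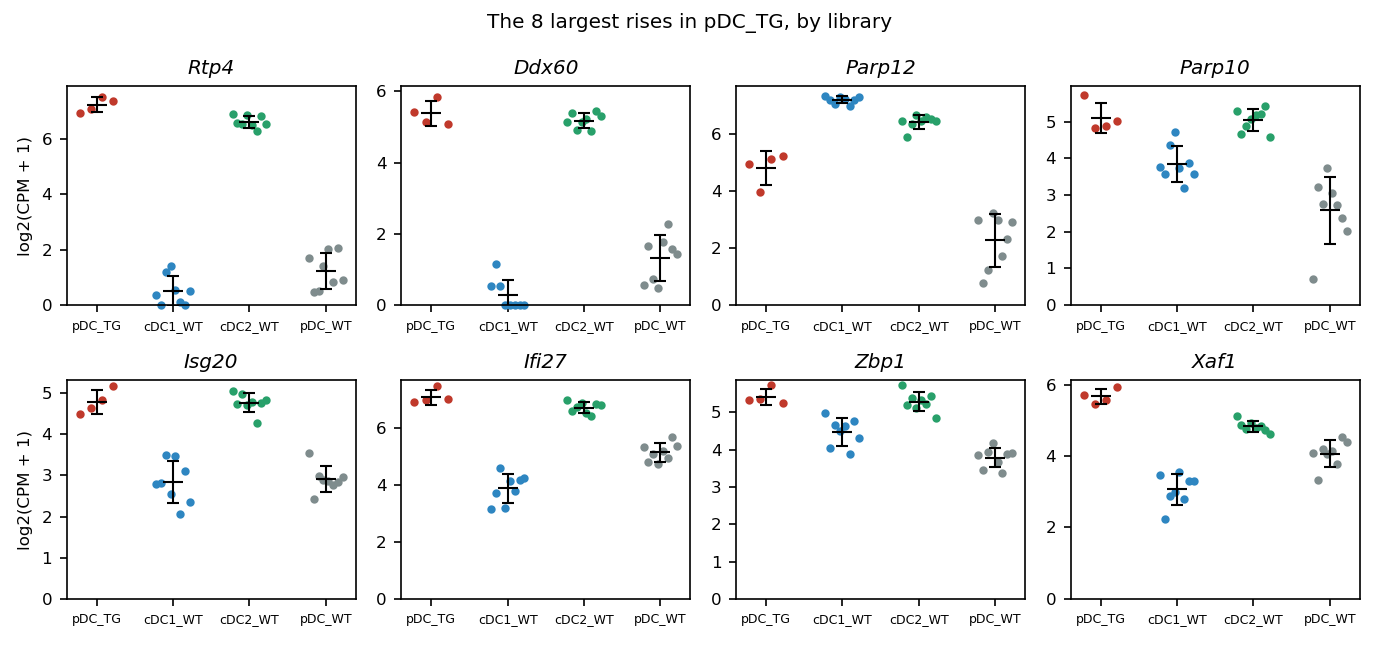
Level by library, as log2(CPM + 1) on the y axis, of the 8 genes with the largest rises, for pDC_TG, cDC1_WT, cDC2_WT and pDC_WT on the x axis; points are libraries, and bars give the mean and SD. In all 8 panels the pDC_TG points lie above the pDC_WT points, and in the panels of Rtp4 and Ddx60 both cDC1_WT and pDC_WT lie near the bottom.

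Of the small interferon-inducible and other proteins, 5 of 10 rose and 1 fell, beside 7.72% and 7.04% of all genes tested. Besides Rtp4, the rises included Ifi27, a small hydrophobic protein of internal membranes, with 118, 124, 175 and 127 CPM in pDC_TG, against 25.5, 34.5 and 50.7 CPM as lowest, median and highest of pDC_WT. Its log2 fold change was 1.95 ± 0.20 (edgeR adjusted p = 1.85e-08), and the groups were well apart. The related gene Ifi27l2a lies 1927 bases away on the opposite strand and was higher than Ifi27 in every pDC library. Ifi27l2a had 176, 188, 330.0 and 330.1 CPM in pDC_TG and 133, 210 and 299 CPM as lowest, median and highest of pDC_WT. Its groups overlapped and its log2 fold change was 0.29 ± 0.25 (edgeR adjusted p = 0.548). Both belong to 1 gene family, and how reads that match more than 1 gene were counted is not given in the sources used here.

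Xaf1, which binds the apoptosis inhibitor XIAP, had 51.0, 43.2, 46.4 and 60.3 CPM in pDC_TG, against 9.02, 16.3 and 22.2 CPM in pDC_WT. It rose without overlap by 1.63 ± 0.20 on the log2 scale (edgeR adjusted p = 5.72e-07). Nmi, a STAT-binding protein, averaged 46.3 ± 3.74 CPM in pDC_TG and 24.5 ± 5.67 CPM in pDC_WT (log2 fold change 0.92 ± 0.16, edgeR adjusted p = 1.34e-04). Ifi35, the product of which pairs with NMI and 16.8% of whose exonic bases are shared with Gm11626, had a log2 fold change of 0.03 ± 0.09 at 136 ± 17.3 CPM in pDC_TG and 133 ± 10.2 CPM in pDC_WT, and was not called. Lgals3bp, a secreted glycoprotein, rose by 0.45 ± 0.13 (edgeR adjusted p = 0.0164), a call lost without replicate 1 of pDC_TG (adjusted p = 0.0627). Against WT replicates 1 to 4 alone its call was also lost (log2 fold change 0.29, edgeR adjusted p = 0.215).

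Ifi44 and Epsti1 were not called. Ifi44 averaged 107 ± 9.56 CPM in pDC_TG and 93.3 ± 25.7 CPM in pDC_WT. Epsti1 averaged 72.4 ± 18.8 CPM in pDC_TG and 84.1 ± 11.9 CPM in pDC_WT. Both were well measured in pDCs, unlike Mx1 and Eif2ak2.

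The 3 falls were small beside the largest rises. Tor3a, a torsin-family ATPase of the endoplasmic reticulum, had 84.9, 65.1, 66.1 and 59.0 CPM in pDC_TG, against 98.4, 115 and 146 CPM as lowest, median and highest of pDC_WT. Every pDC_TG library was below every pDC_WT library, and the log2 fold change was -0.76 ± 0.12 (edgeR adjusted p = 1.75e-05). Samd9l, an interferon-inducible restrictor of translation and growth, had 41.9, 50.3, 27.5 and 36.7 CPM in pDC_TG, against 37.6, 69.1 and 101 CPM in pDC_WT. The Samd9l groups overlapped, and its log2 fold change of -0.75 ± 0.20 (edgeR adjusted p = 0.00853) lost its call without replicate 3 of pDC_TG (adjusted p = 0.0626). The same happened against WT replicates 5 to 8 alone (edgeR adjusted p = 0.0796).

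Trim30a, a TRIM protein that restrains TLR signalling, had 241, 221, 247 and 269 CPM in pDC_TG, against 261, 327 and 370 CPM as lowest, median and highest of pDC_WT. It fell by 0.37 on the log2 scale (log2 fold change -0.37 ± 0.09, edgeR adjusted p = 0.00564), with the highest pDC_TG library above the lowest pDC_WT library. The call was lost against WT replicates 1 to 4 alone (log2 fold change -0.29, adjusted p = 0.153). Trim34a, from the same TRIM family cluster on chromosome 7, rose by 0.54 ± 0.15 (edgeR adjusted p = 0.0106). This call was lost without replicate 3 of pDC_TG (edgeR adjusted p = 0.0768) and against WT replicates 5 to 8 alone (0.103). Of the exonic bases of Trim34a, 23.5% are shared with Gm47248. Trafd1, a feedback inhibitor of innate signalling, rose by 0.40 ± 0.08 (edgeR adjusted p = 0.00117) with 79.4 ± 7.35 CPM in pDC_TG and 60.4 ± 4.23 CPM in pDC_WT. With the replicate block and the 2 groups alone in the fit, Trafd1 (edgeR adjusted p = 0.143), Trim30a (0.203) and Trim34a (0.0900) were not called. The limits of that block given for Usp18 hold here too. Trim21, an Fc receptor and ubiquitin ligase of the cytosol, was not called (log2 fold change 0.25 ± 0.15). The nuclear body genes Sp100 and Daxx were not called either, with log2 fold changes of 0.13 and -0.16.

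**Figure D3:**
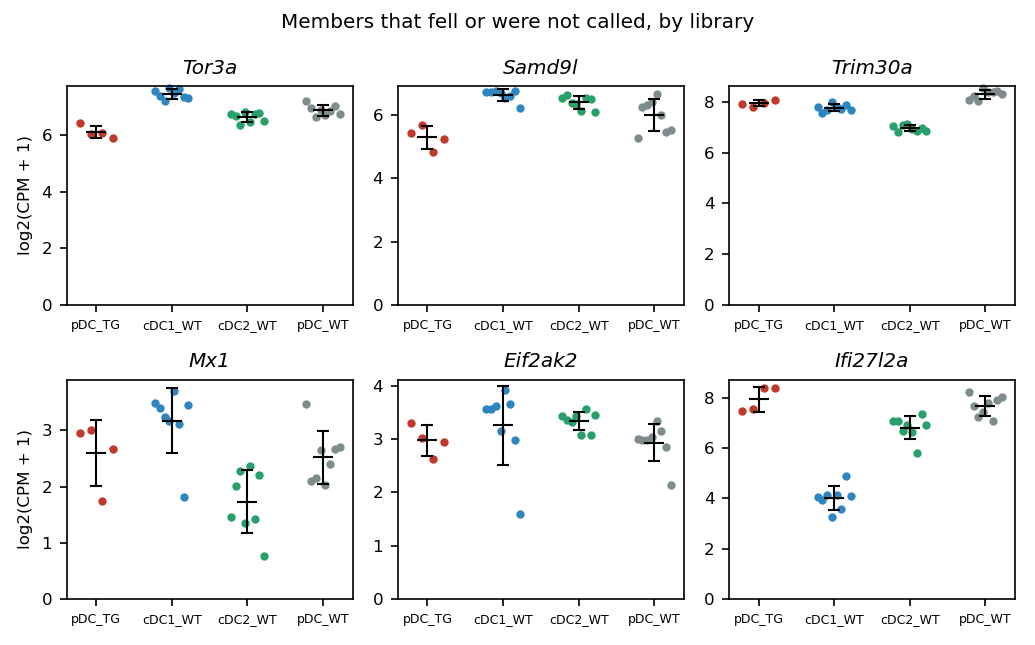
Level by library, as log2(CPM + 1), of the 3 members that fell in pDC_TG (top) and 3 that were not called (bottom), for pDC_TG, cDC1_WT, cDC2_WT and pDC_WT; points are libraries, bars the mean and SD. Only for Tor3a are the pDC_TG points all below the pDC_WT points, while in the bottom panels these points overlap.

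Promoter sequence was examined for the ISRE core, spelled GAAANNGAAA and searched on both strands in the window from 250 bases before to 50 bases after each RefSeq start (GRCm38.p6). Of the 40 genes, 29 had a window, and 8 of these (27.6%) held the core, beside 3.99% of 27025 genes with a window. The core was present in 4 of 12 risers with a window (Isg15, Ddx60, Rsad2 and Trim34a), in 1 of 2 that fell (Trim30a) and in 3 of 14 not called (Eif2ak2, Parp11 and Trim21). The related ETS-IRF composite GGAANNGAAA, which differs from the core in the second letter, was in 6 of 29 members (20.7%) beside 3.16% of all genes, the reverse arrangement GAAANNGGAA in 2 (6.90%) beside 3.18%, and the STAT element TTCNNNGAA in 4 (13.8%) beside 9.55%. No window was at hand for Rtp4, Usp18, Zbp1, Parp9, Parp10, Parp14, Ifi27, Ifi27l2a, Mx1, Mx2 and Tor3a. A match is a description of letters in this window and not of binding.

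The windows of 3 risers and of 1 gene that was not called are shown to set the same letters beside different outcomes, each read 5′ to 3′ on the strand of its gene, with the letters of the ISRE core in capitals on whichever strand they matched. They are Isg15 (chr4:156200769-156201068, minus strand), Ddx60 (chr8:61927837-61928136, plus strand), Rsad2 (chr12:26456403-26456702, minus strand) and Eif2ak2 (chr17:78882523-78882822, minus strand).
Isg15: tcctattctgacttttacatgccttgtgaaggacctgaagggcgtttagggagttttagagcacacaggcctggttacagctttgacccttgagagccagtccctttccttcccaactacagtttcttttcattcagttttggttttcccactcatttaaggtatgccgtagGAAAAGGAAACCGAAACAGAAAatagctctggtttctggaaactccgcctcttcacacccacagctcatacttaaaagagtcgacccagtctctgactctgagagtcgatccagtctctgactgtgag
Ddx60: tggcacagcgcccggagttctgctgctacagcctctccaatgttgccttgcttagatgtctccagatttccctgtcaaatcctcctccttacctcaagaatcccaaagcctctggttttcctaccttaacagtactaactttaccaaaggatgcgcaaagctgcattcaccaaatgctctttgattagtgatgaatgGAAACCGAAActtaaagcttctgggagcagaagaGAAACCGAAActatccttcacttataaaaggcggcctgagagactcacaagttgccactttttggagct
Rsad2: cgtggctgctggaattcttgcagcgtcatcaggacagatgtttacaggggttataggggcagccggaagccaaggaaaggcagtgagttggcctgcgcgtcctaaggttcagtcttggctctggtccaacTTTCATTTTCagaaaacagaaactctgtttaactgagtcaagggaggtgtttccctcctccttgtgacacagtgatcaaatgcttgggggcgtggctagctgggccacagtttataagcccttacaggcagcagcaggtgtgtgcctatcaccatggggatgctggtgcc
Eif2ak2: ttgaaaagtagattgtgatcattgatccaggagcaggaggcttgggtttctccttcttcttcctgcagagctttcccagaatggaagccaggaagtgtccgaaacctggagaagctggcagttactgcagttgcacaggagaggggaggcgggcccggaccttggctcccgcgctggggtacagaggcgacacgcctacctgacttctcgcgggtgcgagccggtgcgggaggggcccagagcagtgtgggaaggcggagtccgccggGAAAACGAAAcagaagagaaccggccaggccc

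Isg15 held 3 overlapping cores that begin 78, 72 and 66 bases before the start. Ddx60 held 2 cores with the same letters, 53 and 19 bases before the start. Rsad2 held 1 on the opposite strand, 120 bases before the start. In Eif2ak2 the core lay 18 bases after the start, and its mean was 6.97 CPM in pDC_TG and 6.83 CPM in pDC_WT.

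The same genes were compared between the groups without Cre, to place the pDC levels among the subsets; these comparisons and the one above share the pDC_WT libraries, so their values stand side by side with no test of likeness. In cDC1_WT against pDC_WT, 10 of 39 genes were higher and 18 lower (edgeR), beside 30.6% and 30.3% of all genes. In cDC2_WT against pDC_WT, 17 were higher and 9 lower, beside 28.8% and 28.3%. In cDC1_WT against cDC2_WT, 6 were higher and 18 lower, beside 22.8% and 23.4%. The members' median log2 fold changes were -0.16, 0.29 and -0.35 in these 3 comparisons, beside -0.03, -0.01 and -0.01 over all genes.

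When libraries were scaled by their totals alone, the share of all calls that were higher in cDC1_WT than in pDC_WT was 36.6%, beside 50.3% with TMM. The median over all genes then was -0.28 for cDC1_WT against pDC_WT, -0.16 for cDC2_WT against pDC_WT and -0.11 for cDC1_WT against cDC2_WT. The member counts under that scaling were 8 higher and 22 lower for cDC1_WT against pDC_WT, with no named member changing side.

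In cDC1_WT the highest gene relative to pDC_WT was Parp12, at 146 ± 12.2 CPM in cDC1_WT and 4.64 ± 2.92 CPM in pDC_WT (SD, n = 8 each; log2 fold change 4.99 ± 0.33, edgeR adjusted p = 1.05e-13). Trafd1 followed, at 312 ± 32.0 CPM in cDC1_WT and 60.4 ± 4.23 CPM in pDC_WT (log2 fold change 2.37). Parp10, Epsti1 and Nmi were also higher in cDC1_WT, with log2 fold changes of 1.25, 1.23 and 1.00. Ifi27l2a was the lowest, at 15.8 ± 5.79 CPM in cDC1_WT and 209 ± 56.9 CPM in pDC_WT (log2 fold change -3.72 ± 0.24, edgeR adjusted p = 3.47e-14). Ifi44, Cmpk2, Rsad2 and Ifi27 were lower in cDC1_WT too, with log2 fold changes of -3.09, -1.96, -1.43 and -1.28. Ddx60 (-2.70) and Rtp4 (-1.58) were also called lower, at means under 5 CPM in both groups. Of the ISG15 conjugation genes, 5 of 6 were lower in cDC1_WT than in pDC_WT and none was higher. Over all genes tested these shares were 30.3% and 30.6%.

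In cDC2_WT the largest difference from pDC_WT was again Rtp4, at 98.2 ± 14.8 CPM in cDC2_WT and 1.57 ± 1.13 CPM in pDC_WT (log2 fold change 5.98 ± 0.46, edgeR adjusted p = 2.36e-12). Ddx60 had 35.5 ± 5.16 CPM in cDC2_WT and 1.71 ± 1.18 CPM in pDC_WT (log2 fold change 4.37 ± 0.53, edgeR adjusted p = 4.10e-08). Parp12, Parp10 and Isg20 were higher in cDC2_WT by 4.22, 2.45 and 1.99 on the log2 scale. Ifi44 was the lowest, at 6.77 ± 3.77 CPM in cDC2_WT and 93.3 ± 25.7 CPM in pDC_WT (log2 fold change -3.78 ± 0.32, edgeR adjusted p = 2.56e-11). Trim30a, Trim25, Mx1 and Ifi27l2a were lower in cDC2_WT, with log2 fold changes of -1.35, -1.22, -0.98 and -0.86. The Mx1 call was lost with replicates 1 to 4 alone (adjusted p = 0.0577) and with replicates 5 to 8 alone (adjusted p = 0.236).

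**Figure D4:**
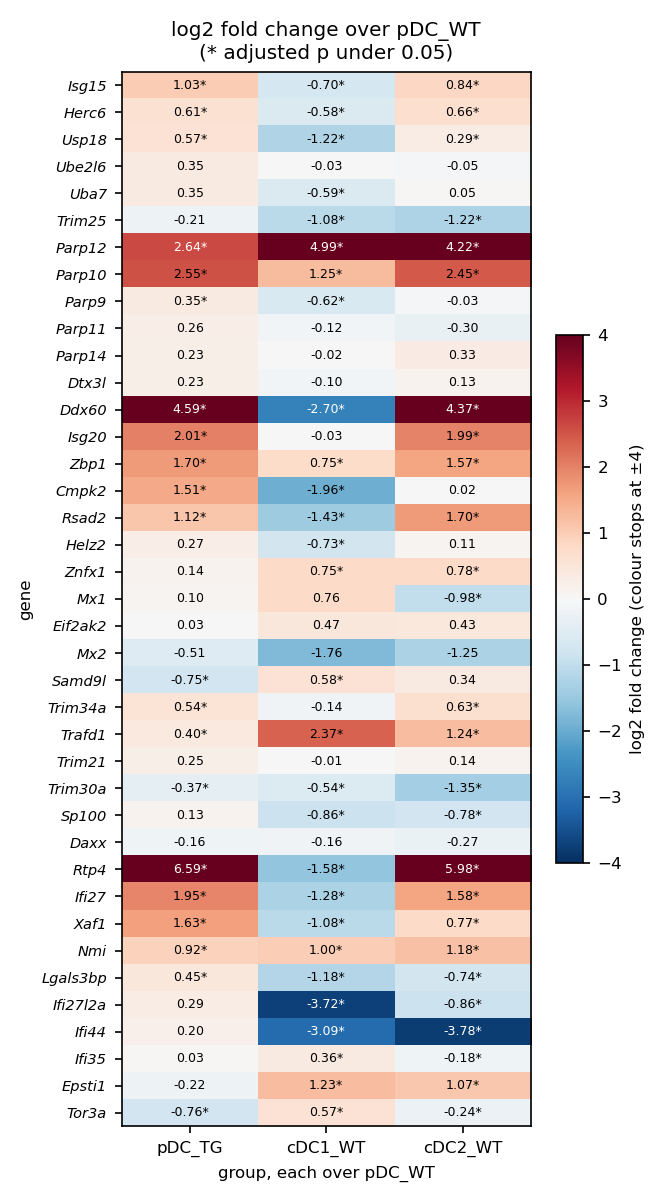
log2 fold change over pDC_WT of each of the 39 genes (rows, by role) in pDC_TG, cDC1_WT and cDC2_WT (columns), which share the pDC_WT libraries; red is higher and blue lower, colour stops at 4 in either direction, and asterisks mark an adjusted p under 0.05. Rtp4 and Ddx60 are red in pDC_TG and cDC2_WT and blue in cDC1_WT, and Ifi44 and Ifi27l2a are blue in both conventional subsets and near 0 in pDC_TG.

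Set side by side, Rtp4 had a log2 fold change over pDC_WT of 6.59 in pDC_TG and 5.98 in cDC2_WT, and Ddx60 of 4.59 in pDC_TG and 4.37 in cDC2_WT. For Parp10 it was 2.55 in pDC_TG and 2.45 in cDC2_WT, for Isg20 2.01 in pDC_TG and 1.99 in cDC2_WT, and for Zbp1 1.70 in pDC_TG and 1.57 in cDC2_WT. The rest of the 8 largest rises were Parp12, at 2.64 in pDC_TG and 4.22 in cDC2_WT, Ifi27, at 1.95 and 1.58, and Xaf1, at 1.63 and 0.77. Of the 39 genes, 11 had every pDC_TG library above every cDC2_WT library and 5 had every one below, beside 16.2% and 17% of all genes tested; the other 23 overlapped. Of the 18 members that rose in pDC_TG, 11 overlapped with cDC2_WT in range. By the shares just given, most of all genes tested overlapped too, so this overlap is not particular to the risers. In 4 of the 18 (Rtp4, Xaf1, Cmpk2 and Lgals3bp) every pDC_TG library was above every cDC2_WT library, and in 3 (Parp12, Rsad2 and Trafd1) every one was below. Ifi44, not called, had 107 CPM in pDC_TG, 11.0 CPM in cDC1_WT, 6.77 CPM in cDC2_WT and 93.3 CPM in pDC_WT. In 6 members not called, Ifi44, Ifi27l2a, Sp100 and Trim25 among them, every pDC_TG library was above every cDC2_WT library. No fit compared pDC_TG with cDC2_WT directly.

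Between the conventional subsets, Rtp4 had 0.521 ± 0.622 CPM in cDC1_WT and 98.2 ± 14.8 CPM in cDC2_WT (log2 fold change -7.56 ± 0.51, edgeR adjusted p = 3.19e-13). Ddx60 had 0.262 ± 0.434 CPM in cDC1_WT and 35.5 ± 5.16 CPM in cDC2_WT (log2 fold change -7.07 ± 0.64, edgeR adjusted p = 1.81e-10). Rsad2, Ifi27l2a and Ifi27 were lower in cDC1_WT than in cDC2_WT, by log2 fold changes of -3.13, -2.87 and -2.86. Mx1, Trafd1, Tor3a, Trim30a and Parp12 were higher in cDC1_WT, by 1.74, 1.12, 0.82, 0.81 and 0.77 on the log2 scale. The Parp12 call was lost with replicates 1 to 4 alone (adjusted p = 0.205) and with replicates 5 to 8 alone (adjusted p = 0.0647). Mx1 had 8.53 ± 2.79 CPM in cDC1_WT and 2.54 ± 1.28 CPM in cDC2_WT.

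Over all 39 genes the mean of log2(CPM + 1) per library was 5.81 to 6.03 in pDC_TG, 4.80 to 5.10 in cDC1_WT, 5.52 to 5.86 in cDC2_WT and 5.00 to 5.37 in pDC_WT. The pDC_TG libraries were above every pDC_WT library, and their range overlapped that of cDC2_WT. The summed level of the 39 genes was 3266 to 3839 CPM in pDC_TG and 2577 to 3137 CPM in pDC_WT, again without overlap. Per kilobase of exon, Ifi27l2a had the highest level in pDC_TG (553 CPM per kilobase) and in pDC_WT (451 CPM per kilobase), while Rtp4 stood at 70.5 CPM per kilobase in pDC_TG and 0.736 CPM per kilobase in pDC_WT.

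**Figure D5:**
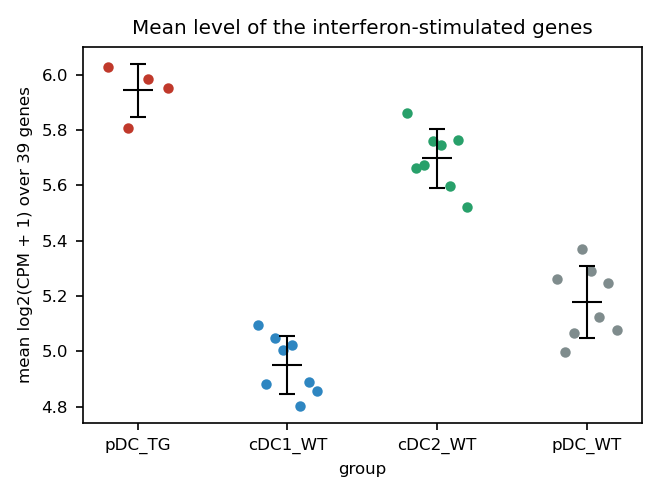
Mean of log2(CPM + 1) over the 39 genes (y axis, which does not start at 0) in each library of pDC_TG, cDC1_WT, cDC2_WT and pDC_WT; points are libraries, and bars give the mean and SD. The pDC_TG points, 5.81 to 6.03, lie above all pDC_WT points, 5.00 to 5.37, and the cDC1_WT points have the lowest mean.

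The other interferon-stimulated families and the upstream genes were counted for context. Of 23 genes of the OAS, IFIT, GBP/IRG, Schlafen and PYHIN families and related sensors and effectors, 15 rose in pDC_TG and 2 fell, Ifi204 and Bst2 (edgeR), with a median log2 fold change of 1.18. Those counts are 65.2% and 8.70% of the list, beside 7.72% and 7.04% of all genes tested. Oas3, Gbp2 and Oas1a, which had the smallest p-values, rose by 2.73, 3.20 and 2.54 on the log2 scale. Of 12 genes of interferon reception and the STAT complex, 1 rose (Ifngr1, log2 fold change 0.59) and 4 fell (Jak2 -0.85, Tyk2 -0.80, Ifngr2 -0.31 and Ifnar2 -0.28), and the median was -0.21. In this list 8.33% were higher, near the 7.72% of all genes, and 33.3% lower, beside 7.04%. Stat2 and Irf9, whose products act in the same DNA-binding complex, had log2 fold changes of -0.15 and 0.12 and were not called.

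Of 8 interferon regulatory factor genes, 2 rose (25%) and 3 fell (37.5%), beside 7.72% and 7.04% of all genes tested. The falls include Irf8, the gene targeted by the deletion. Irf4 and Irf2 rose by 1.58 and 0.90 on the log2 scale, and Irf8, Irf5 and Irf1 fell, with log2 fold changes of -2.07, -1.15 and -0.83. Irf7, itself interferon-stimulated and the main inducer of type I interferon genes in pDCs, averaged 676 ± 49.9 CPM in pDC_TG and 630 ± 118 CPM in pDC_WT (log2 fold change 0.10, edgeR adjusted p = 0.695). Of 21 interferon genes, only Ifng had counts enough to be tested, at 4.27 ± 1.58 CPM in pDC_TG and 0.273 ± 0.405 CPM in pDC_WT (log2 fold change 3.93 ± 1.26, edgeR adjusted p = 0.0463). Ifng was at 0 in every cDC1_WT and cDC2_WT library and at 0 to 1.17 CPM in pDC_WT. It therefore passed the filter on low counts only through the pDC_TG libraries, where it was high, and its call gives no separate support. Ifnb1 averaged 0.0662 CPM in pDC_TG and 0.252 CPM in pDC_WT, from 7 and 49 counts in all.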

How the data were processed

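Sorted spleen dendritic cells were the RNA source; per the labels' protocols, cDNA was made with SMART-Seq v4, a kit that does not mark strand, and read from 1 end. The authors deposited 1 table of raw counts per gene for each of 28 libraries, with 24421 genes. Tools listed, per the submitters' processing notes, are TopHat2 2.1.0, SAMtools 0.1.18, Trimmomatic 0.35 and FastQC 0.11.4, with the mm10 genome. For the counting tool and its annotation, a name is not given in the sources used here. Each table's 5 summary lines were left out; reads without a feature were 8.23% to 18.7% of each table's total. The series' design text speaks of 4 replicates, whereas each group without Cre has 8 libraries, and all were used. No pair of libraries agreed within counting noise.

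Counts were filtered (filterByExpr, minimum count 10, minimum total 15), scaled by TMM and fitted over all 28 libraries with edgeR 4.0.16 (robust quasi-likelihood, R 4.3.3), and p-values were adjusted over 13159 genes by Benjamini-Hochberg with a threshold of 0.05. Irf8 was also tested by exact permutation of log2 CPM. The SE of a log2 fold change was taken from it and its F statistic. The fit was also run on simulated data that gave every gene the same spread. That setting is simpler than these data, and no result here rests on it. Alternatives were RLE factors, library totals alone, no filter, DESeq2 1.42.0, a test against a 1.5-fold change, the replicate number as a block, the compared groups alone, WT replicates 1 to 4 or 5 to 8 alone, and each pDC_TG library left out. Gene positions are from GENCODE M21 (GRCm38) and promoters from RefSeq (GRCm38.p6). The genes and lists were chosen with earlier results of these data known. Values are given per library for the 8 largest rises and falls past the threshold at 5 CPM or more in the higher group. Isg15, Usp18 and Mx1 are also given per library. Between groups without Cre the 5 largest each way are named, under the same threshold and CPM minimum. Eif2ak2, Ifi27l2a and Ifi44 were singled out after their values were seen. The value of 1 gene of the signalling list is not reported here.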

Additional observations from a re-analysis of the deposited data

Results flagged for a closer look

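Among 152 combinations of gene and group, 9 had a library far from the others of its group by Dixon's test, which chance alone gives in about 1 in 20. In pDC_TG, Parp10 had 51.6 CPM in replicate 1 (the next library had 31.3 CPM), Rsad2 had 26.9 CPM in replicate 2 (next 35.4 CPM) and Ifi27 had 175 CPM in replicate 3 (next 127 CPM). All 3 of these values stand above every pDC_WT library of the same gene.

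In cDC1_WT, replicate 7 had 2.54 CPM of Mx1 (next 7.61 CPM) and 28.2 CPM of Ifi27l2a (next 16.7 CPM), and replicate 5 had 75.6 CPM of Nmi (next 54.5 CPM). In cDC2_WT, replicate 2 had 58.0 CPM of Parp12 (next 81.2 CPM). In pDC_WT, replicate 1 had 10.0 CPM of Mx1 (next 5.56 CPM) and 10.7 CPM of Isg20 (next 6.94 CPM), and this library was the shallowest, with 17299285 gene counts.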

How the results depend on the processing

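In pDC_TG against pDC_WT, 9 rises (Cmpk2, Ddx60, Ifi27, Isg20, Parp10, Parp12, Rtp4, Xaf1 and Zbp1) kept their call and direction under all 14 alternatives. DESeq2 and RLE factors each gave 18 members higher and 3 lower. Against a 1.5-fold change, edgeR called 9 members higher and 0 lower in pDC_TG (12 and 1 at an unadjusted p under 0.05), 5 higher and 12 lower in cDC1_WT than in pDC_WT, 4 higher and 12 lower in cDC1_WT than in cDC2_WT, and 11 higher and 4 lower in cDC2_WT than in pDC_WT; a larger change is asked for by construction. Of the named members, Ifi27l2a (adjusted p = 0.0920) and Mx1 (0.118) in cDC2_WT against pDC_WT and Parp12 (0.329) in cDC1_WT against cDC2_WT also lost their calls in that test. Leaving out 1 pDC_TG library gave 16 to 18 higher and 2 to 3 lower, with the log2 fold change of Irf8 at -2.18 to -1.98. Same-numbered libraries are not stated to share mice: their deviations correlated at 0.0246 to 0.108 among groups without Cre and at -0.0269 to 0.0627 with pDC_TG, with the best match on the own number in 8, 7 and 6 of 8 libraries (cDC1_WT with cDC2_WT, pDC_WT with cDC1_WT, pDC_WT with cDC2_WT). For pDC_TG the best match was on the own number in 1 of 4 libraries with cDC1_WT and in 0 of 4 with cDC2_WT or pDC_WT. The mice of pDC_TG and pDC_WT differed in genotype, so equal numbers between these groups cannot be the same mouse. With the replicate block, 17 members were higher and 3 lower in pDC_TG. With the replicate block and the compared libraries alone, an alternative chosen after seeing the data, 13 were higher and 1 was lower in pDC_TG. The calls lost there were Usp18, Parp9, Trim34a, Trafd1, Lgals3bp, Samd9l and Trim30a. In that fit numbers 5 to 8 held pDC_WT libraries alone and did not inform the contrast. Mx1 lost its call in cDC2_WT against pDC_WT under the same alternative (edgeR adjusted p = 0.0729). Uncalled log2 fold changes near 0 turned sign: under the replicate block Mx1 (-0.0072), Eif2ak2 (-0.041) and Znfx1 (-0.012); with WT replicates 1 to 4 alone Mx1 (-0.030), Eif2ak2 (-0.0071) and Znfx1 (-0.022); with WT replicates 5 to 8 alone Ifi35 (-0.016); and under the added replicate block Mx1 (-0.0077) and Eif2ak2 (-0.033). Without 1 pDC_TG library they ranged over -0.056 to 0.35 for Mx1, -0.11 to 0.15 for Eif2ak2 and -0.039 to 0.093 for Ifi35. Library totals alone called Uba7 and Ube2l6 higher (adjusted p = 0.0359 and 0.0278). Over all genes, the 1.5-fold test called 337 higher and 194 lower in pDC_TG and the added replicate block 475 and 595, against 1016 and 927. The cause of changes other than the stricter test's was not tested. Mx1, Mx2 and Eif2ak2 were measured at a few CPM, which limits what their tests can show.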
